A study of Mus musculus with 12 samples.

Results

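The genes described here are Thbs1, Thbs2, Thbs3, Thbs4, Comp, Tnc, Spon1, Spon2, Sparc and Postn, which encode secreted matricellular proteins. They were taken by symbol from the platform annotation, 10 of the 19938 genes measured, and each was read by 1 probe set. Expression was measured in 4 blood vessels of 8-week-old wild-type C57BL/6 mice that had received no treatment. These were the ascending aorta, the coronary artery, the descending aorta and the superior mesenteric artery, which supplies most of the intestine. Total RNA of each vessel was made into cRNA and hybridised to 3 Affymetrix arrays, 12 in all, which the labels call biological replicates. The submitters asked which profiles go with the embryonic origin of a vessel. The labels do not say whether an array came from 1 animal or from a pool, so p-values measure the spread between these arrays.

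Matricellular proteins are laid down in the extracellular matrix but, unlike collagens, mainly regulate how cells attach, migrate and respond to growth factors. Thrombospondins form trimers (Thbs1 and Thbs2) or pentamers (Thbs3, Thbs4 and Comp) and bind calcium, matrix proteins and cell surface receptors. Thbs1 and Thbs2 restrain the growth of new vessels through the receptor Cd36, and Thbs1 also binds Cd47 and activates latent TGF-beta. Tenascin-C (Tnc) and periostin (Postn) are made at sites of matrix remodelling, in the embryo and after injury. Sparc binds collagen, and the spondins (Spon1, or F-spondin, and Spon2, or mindin) share domains with the thrombospondins.

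Values are log2 expression, differences are given as log2 units ± SE from limma, a linear model fitted to all genes at once, and each level is a mean ± SD (n = 3 arrays). A difference was called at an adjusted p (Benjamini-Hochberg over all genes) under 0.05. Array medians lay between 4.04 and 4.18, and the means of Thbs4, Comp and Tnc lay near or under these. So did the Spon2 means of ascending aorta (3.93) and descending aorta (4.03) and the Thbs2 mean of superior mesenteric artery (4.07). Detection calls were not used here, so a fold against a low level may be a lower bound. The number of arrays limits the precision. Some arrays carried transcripts of other tissues. Heart muscle genes averaged between 9.34 and 9.73 in the coronary artery arrays and at most 5.14 elsewhere. Single genes of that list were higher elsewhere. Tnnt2 was at 10.34, 8.02 and 8.08 in superior mesenteric artery, and descending aorta replicate 1 had Tnnt2 at 7.89 and Tnni3 at 7.85. Brown fat genes (Ucp1, Cidea, Dio2 and Elovl3) averaged between 6.41 and 8.31 in the aortic arrays. They averaged between 3.21 and 4.14 in the coronary and mesenteric arrays. Of the 4, Elovl3 was low in aortic arrays too, except descending aorta replicate 3 (6.59). B cell genes averaged 8.31 in ascending aorta replicate 1, which had fibroblast genes at 6.01 against 7.81 to 8.69 in the other arrays. In the superior mesenteric artery these genes were at 7.55 in replicate 2 and 7.16 in replicate 3, the second of which had pancreatic acinar genes at 9.42. In whole tissue, fewer cells of a type and less RNA per cell cannot be told apart.

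Among the 10 genes, 4 differed between at least 1 pair of vessels: Spon2, Thbs1, Thbs2 and Postn. Over all genes 6.8% did. By limma's F test over the 4 vessels, 2 of the 10 passed, Spon2 and Thbs1 (adjusted p = 0.00118 and 0.029), where 4.72% of all genes passed. Between ascending and descending aorta, 0 of the 10 genes passed in limma and 0 had an unadjusted p under 0.05, where 0.015% of all genes passed and 9.64% had such a p. The comparisons with passing genes were ascending aorta with coronary artery (2 genes, Spon2 lower and Postn higher in ascending aorta, against 2.47% of all genes) and ascending aorta with superior mesenteric artery (1 gene, Spon2, against 0.176%). Coronary artery differed from descending aorta in 1 gene, Spon2, where 3.14% of all genes passed. Coronary artery differed from superior mesenteric artery in 2 genes, Thbs1 and Thbs2, where 3.24% passed. Descending aorta differed from superior mesenteric artery in 1 gene, Spon2, where 3.2% passed. The arrays of the vessels did not overlap for 2 of the 10 genes in ascending aorta with coronary artery (19.3% of all genes), 2 in ascending aorta with superior mesenteric artery (9.35%) and 5 in descending aorta with superior mesenteric artery (22.9%). These comparisons share arrays and are not independent of each other. The plot of all 10 genes by array shows which groups overlap, and the plot of differences shows each of the 60 differences with its SE.

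**Figure D1:**
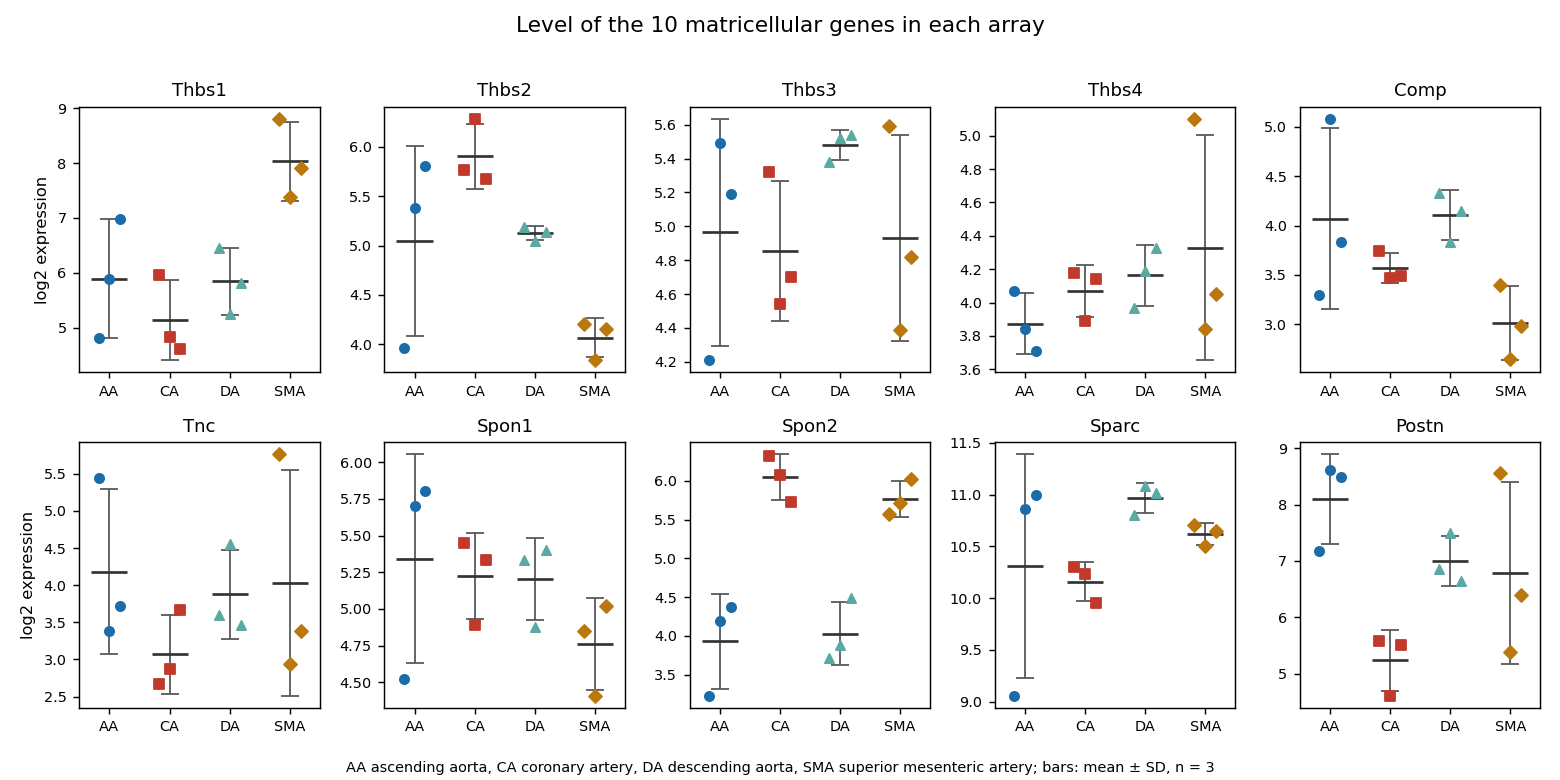
Log2 expression of each of the 10 genes (vertical axes, scaled per gene) in the 3 arrays of ascending aorta (AA), coronary artery (CA), descending aorta (DA) and superior mesenteric artery (SMA), with means and SD bars. Spon2 lies at or above 5.57 in every coronary and mesenteric array and at or under 4.49 in every aortic array, and Thbs1 is highest in the superior mesenteric artery.

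**Figure D2:**
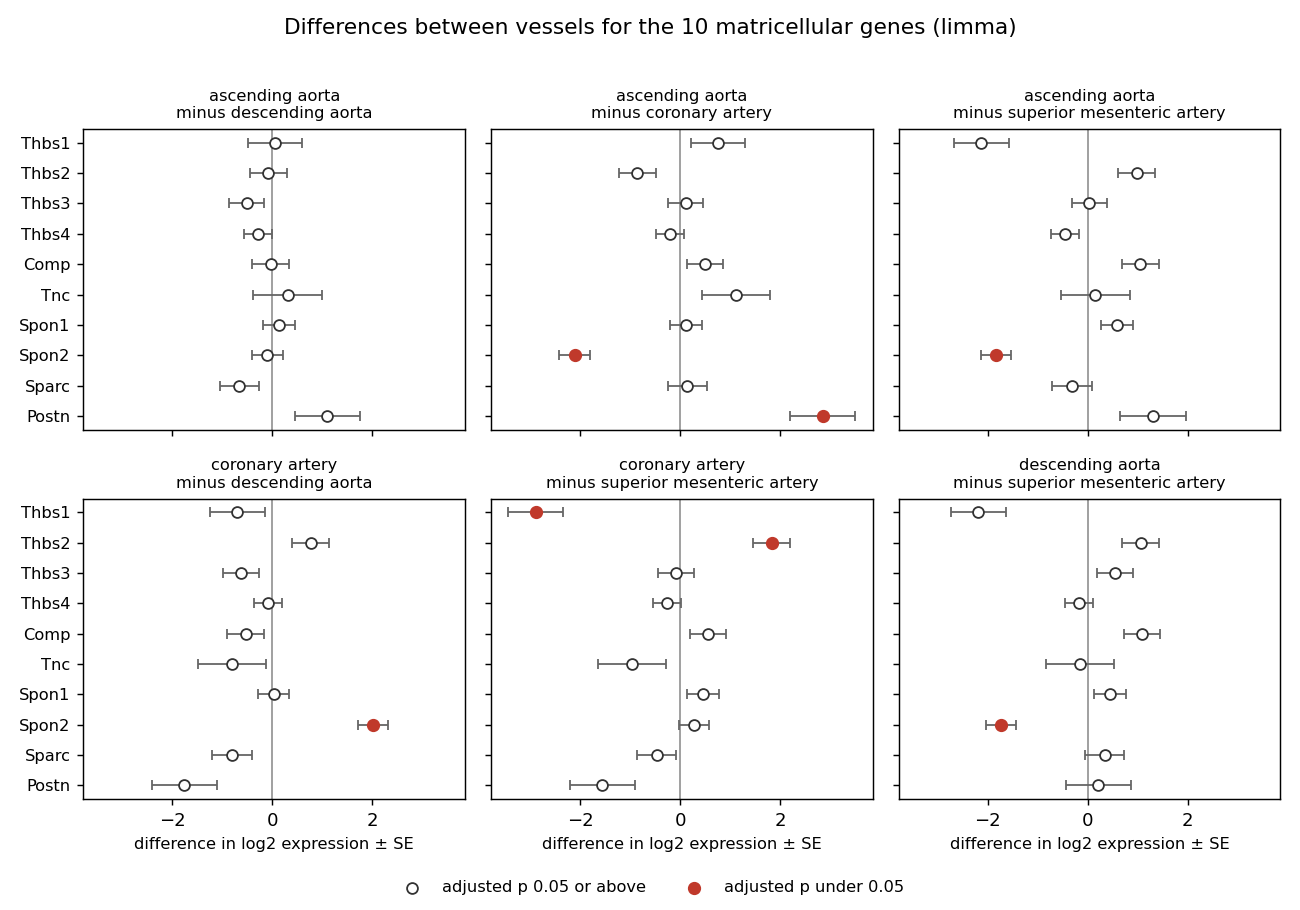
Difference in log2 expression ± SE between each pair of vessels for the 10 genes, the vessel named first minus the second. Filled red points mark limma adjusted p under 0.05, and open points mark the rest, with 7 filled points among 60 and none between ascending and descending aorta.

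Spon2, the gene of mindin, a secreted protein that binds integrins and is known for roles in innate immunity, was high in both branch arteries and low in both segments of the aorta. It measured 3.23, 4.19 and 4.37 in ascending aorta, 6.32, 6.08 and 5.73 in coronary artery, 3.72, 3.88 and 4.49 in descending aorta, and 5.57, 5.71 and 6.02 in superior mesenteric artery. All 6 arrays of the branch arteries lay above all 6 arrays of the aorta, a pattern seen in 0.406% of all genes. Within each of these pairs of vessels the arrays overlapped.

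The Spon2 difference was -2.11 ± 0.30 for ascending aorta minus coronary artery (limma adjusted p = 0.00178), a 4.32-fold higher level in the coronary artery. It was -1.84 ± 0.30 for ascending aorta minus superior mesenteric artery (limma adjusted p = 0.037). Descending aorta gave a like picture. The difference was 2.01 ± 0.30 for coronary artery minus descending aorta (limma adjusted p = 0.00236) and -1.74 ± 0.30 for descending aorta minus superior mesenteric artery (limma adjusted p = 0.008). Ascending aorta minus descending aorta was -0.10, with a 95% interval of -0.76 to 0.56, and coronary minus superior mesenteric artery was 0.28, with an interval of -0.38 to 0.94. Of all 19938 genes, 3 passed in the same direction in all 4 comparisons of a branch artery with an aortic segment: Spon2, the receptor gene Adgrg6 and the prolyl hydroxylase gene Egln3, the last 2 being named after their values were seen. Of the 4, ascending aorta with superior mesenteric artery had the highest adjusted p. It did not pass in limma when any 1 of ascending aorta replicates 2 and 3, the 3 coronary artery replicates, descending aorta replicates 1 and 2 or superior mesenteric artery replicates 2 and 3 was left out (adjusted p between 0.0572 and 0.225). Descending aorta minus superior mesenteric artery missed the threshold without descending aorta replicate 2 (limma adjusted p = 0.0554).

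The genes whose log2 values over the 12 arrays were most like those of Spon2 were Agr2 (Pearson r = 0.952), Wt1 (r = 0.94) and Spock2 (r = 0.94), with the arrays sharing vessels. Agr2 encodes a protein disulfide isomerase of secretory cells. It was low, at 2.23 to 3.16 in the aortic arrays, under the array medians. It lay at 3.79 to 4.23 in superior mesenteric artery and 3.95 to 5.04 in coronary artery. Wt1, a transcription factor of mesothelium, the cell layer that covers the heart and abdominal organs, measured 3.91, 4.97 and 5.22 in ascending aorta, 7.08, 6.99 and 6.52 in coronary artery, 5.20, 4.69 and 6.11 in descending aorta, and 5.86, 6.51 and 6.55 in superior mesenteric artery. The mean of 5 mesothelial markers (Msln, Upk3b, Wt1, Lrrn4 and Krt19), of which Lrrn4 had the lowest value at 2.58, lay between 3.82 and 6.40 in ascending aorta, 7.61 and 8.29 in coronary artery, 5.39 and 7.33 in descending aorta, and 5.89 and 7.78 in superior mesenteric artery. By limma, 2 of these 5 were lower in ascending aorta than in the coronary artery. In the other 3 comparisons in which Spon2 passed, 0 of the 5 did. All 3 coronary arrays and 2 of the 3 mesenteric arrays had a mesothelial mean above that of every aortic array, the third mesenteric array, replicate 1, being at 5.89. Brown fat genes averaged higher in every aortic array than in any coronary or mesenteric array. The part of mesothelial cells or of brown fat in the Spon2 difference was not tested.

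**Figure D3:**
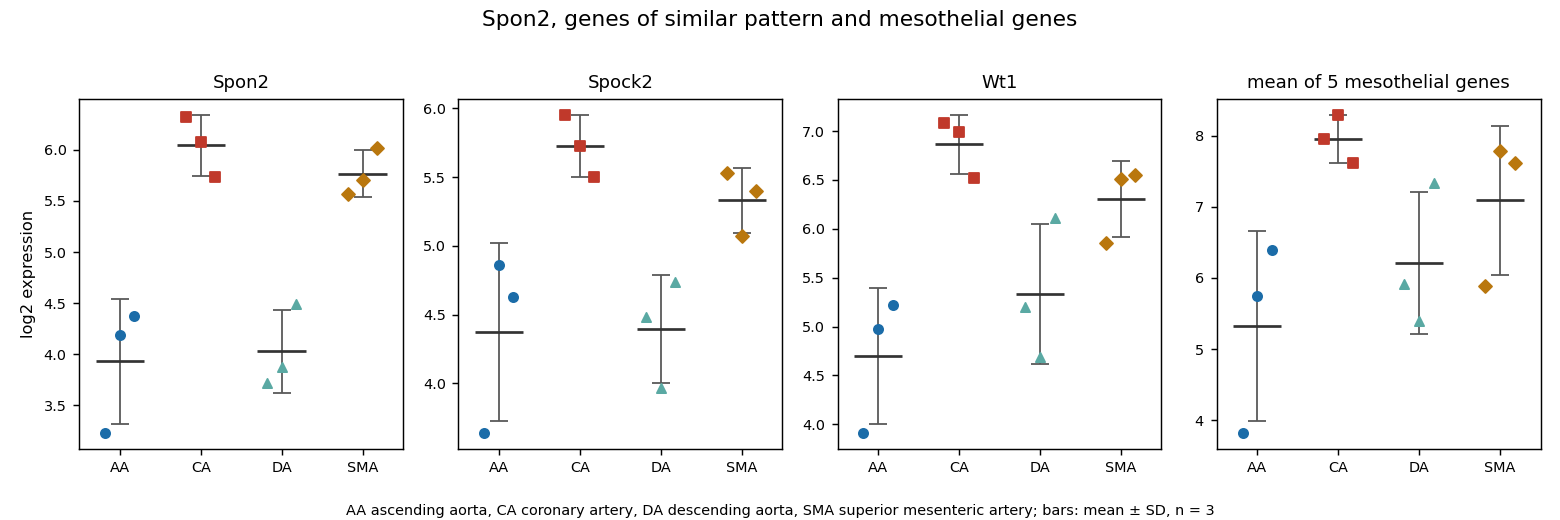
Log2 expression of Spon2, Spock2, Wt1 and the mean of 5 mesothelial genes (vertical axes) in each array of the 4 vessels, with mean and SD bars. Spon2 of the coronary and mesenteric arteries stands clear of both aortic segments, and the mesothelial mean is above 7.33, the highest aortic value, in all coronary arrays and in 2 of the 3 mesenteric arrays (the other is at 5.89).

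Spon1, the gene of F-spondin, an adhesion protein first known from the floor plate of the embryonic spinal cord, showed no difference that passed. It measured 4.52, 5.70 and 5.80 in ascending aorta, 5.45, 4.89 and 5.33 in coronary artery, 5.33, 4.88 and 5.40 in descending aorta, and 4.85, 4.41 and 5.02 in superior mesenteric artery. The vessels overlapped, and the largest difference, 0.58 ± 0.32 for ascending aorta minus superior mesenteric artery, had a limma adjusted p of 0.801 and a 95% interval of -0.11 to 1.28. Without ascending aorta replicate 1 that difference was 0.99 ± 0.25, with a limma adjusted p of 0.05 that lay just under the threshold before rounding. Spon2 thus had a called difference in 4 of 6 comparisons and Spon1 in 0 of 6. Whether the profiles of these genes differ from each other was not tested.

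Thbs1, whose protein is stored in platelets and made by many cells of the vessel wall, was highest in the superior mesenteric artery. It measured 4.82, 5.88 and 6.99 in ascending aorta, 5.97, 4.84 and 4.61 in coronary artery, 6.46, 5.25 and 5.82 in descending aorta, and 8.80, 7.38 and 7.91 in superior mesenteric artery. The 3 mesenteric arrays lay above all the other arrays, which overlapped one another. The difference was -2.89 ± 0.55 for coronary minus superior mesenteric artery (limma adjusted p = 0.011), a 7.41-fold higher level in the superior mesenteric artery. It was -2.19 ± 0.55 for descending aorta minus superior mesenteric artery and -2.13 ± 0.55 for ascending aorta minus superior mesenteric artery, neither past the threshold (limma adjusted p = 0.0518 and 0.215).

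The coronary comparison of Thbs1 was lost without coronary artery replicate 2 or 3 (limma adjusted p = 0.0553 and 0.0716). Its F test was lost in limma without coronary artery replicate 2 (adjusted p = 0.0848) or 3 (0.0874), descending aorta replicate 2 (0.0581) or 3 (0.0613), or superior mesenteric artery replicate 1 (0.111) or 3 (0.1). The 4 measured platelet and megakaryocyte genes (Pf4, Ppbp, Itga2b and Gp9) averaged between 6.25 and 6.88 in coronary artery and between 6.89 and 8.79 in superior mesenteric artery, and 0 of 4 passed in that comparison in limma. Of these genes only Ppbp did not overlap between the vessels. The platelet mean also reached 7.84 in ascending aorta and 7.62 in descending aorta. Smooth muscle genes averaged between 5.33 and 5.80 in coronary artery and between 6.29 and 9.49 in superior mesenteric artery, and 2 of 7 were lower in the coronary artery. Myocd was at 5.77, 5.58 and 6.03 in coronary artery and 7.40, 3.67 and 4.42 in superior mesenteric artery. Smtn was at 6.48, 6.41 and 6.48 against 8.00, 5.46 and 6.40. The rest of the list was higher in every mesenteric array than in any coronary array. The part of platelet or smooth muscle transcripts in the Thbs1 difference was not tested. The genes most like Thbs1 over the 12 arrays were Pappa (r = 0.935), which encodes a protease of insulin-like growth factor binding proteins, Pros1 (r = 0.92), which encodes the anticoagulant protein S, and the fibrillin gene Fbn2 (r = 0.915). Pappa (2.93 to 4.32) and Fbn2 (3.03 to 3.73) lay mostly under the array medians. Neither passed the limma F test (adjusted p = 0.163 and 0.176).

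Thbs2, the closest relative of Thbs1, ran the other way between the branch arteries, being high in the coronary and low in the superior mesenteric artery. It measured 3.96, 5.38 and 5.80 in ascending aorta, 5.76, 6.28 and 5.67 in coronary artery, 5.19, 5.05 and 5.14 in descending aorta, and 4.21, 3.84 and 4.15 in superior mesenteric artery. Coronary and mesenteric arrays did not overlap, descending aorta lay between them, and ascending aorta spanned both, with its replicate 1 at 3.96. The difference was 1.83 ± 0.37 for coronary minus superior mesenteric artery (limma adjusted p = 0.0157), a 3.57-fold higher level in the coronary artery. It missed the threshold without coronary artery replicate 2 (limma adjusted p = 0.0774) or 3 (0.0507), or superior mesenteric artery replicate 2 (0.0621) or 3 (0.0555).

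Ascending aorta replicate 1 also weighed on Thbs2. With all arrays the limma F test gave adjusted p = 0.055, and without that array adjusted p = 0.00028 (0.0221 without ascending aorta replicate 3). The F test of Thbs2 also passed after a renewed quantile normalization (limma adjusted p = 0.0422), with arrays centred on their medians (0.0481) and with array weights (0.00209). Without replicate 1, Thbs2 passed in 3 more comparisons. It exceeded superior mesenteric artery by 1.53 ± 0.23 in ascending aorta (limma adjusted p = 0.00215) and by 1.06 ± 0.20 in descending aorta (0.00606), and coronary artery exceeded descending aorta by 0.77 ± 0.20 (0.0457). The genes most like Thbs2 were Vegfb (r = 0.945), a VEGF family gene, and the mitochondrial complex I subunit genes Ndufa13 (r = 0.93) and Ndufa5 (r = 0.928). Fibroblast genes averaged between 7.81 and 8.14 in coronary artery and between 7.84 and 8.30 in superior mesenteric artery, with overlapping ranges. Heart muscle genes averaged between 9.34 and 9.73 in coronary artery and between 4.29 and 4.65 in superior mesenteric artery, with 7 of 8 higher in the coronary artery, and their part was not tested.

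**Figure D4:**
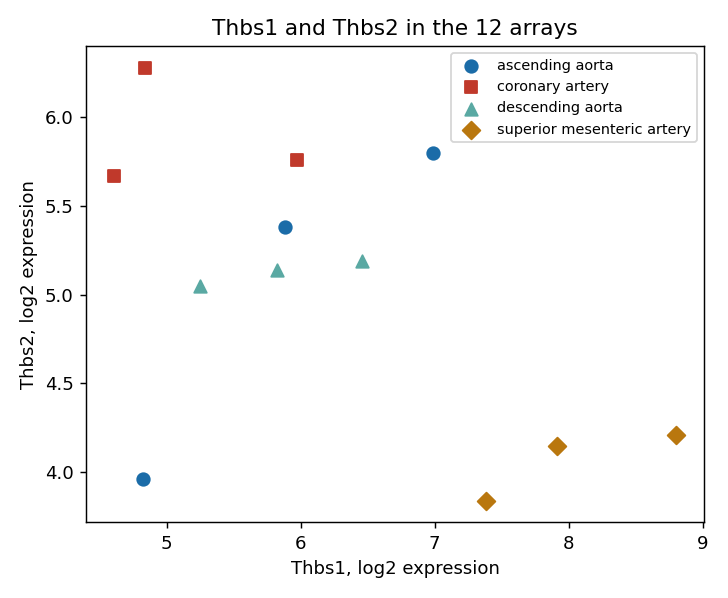
Thbs1 (horizontal axis) against Thbs2 (vertical axis), both log2 expression, in the 12 arrays, with colour and shape giving the vessel. The superior mesenteric artery arrays sit apart at high Thbs1 (7.38 to 8.80) and low Thbs2 (3.84 to 4.21), and the coronary arrays at high Thbs2 (5.67 to 6.28).

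RefSeq promoter sequences (GRCm38.p6) matched 6 of the 10 genes, and those of Thbs2 and Postn are shown because both genes passed in a comparison of vessels. Each covers the 250 bases before an annotated start and was searched on both strands for the TATA box (TATAAA), the GC box (GGGCGG), the AP-1 site (TGANTCA) and the CArG box of smooth muscle genes. Over 32851 promoters of this length, these occur in 12.4%, 32.7%, 6.75% and 1.47%. Capitals mark a TATAAA match, the motif found in these windows. The match in Thbs2 (chr17:14694263-14694512, minus strand) is on the opposite strand and ends 121 bases before the start. Of the 2 listed starts of Postn, the one with a match is shown (chr3:54360857-54361106, plus strand). There the match begins 26 bases before the start. The search describes letters and does not show binding.
Thbs2: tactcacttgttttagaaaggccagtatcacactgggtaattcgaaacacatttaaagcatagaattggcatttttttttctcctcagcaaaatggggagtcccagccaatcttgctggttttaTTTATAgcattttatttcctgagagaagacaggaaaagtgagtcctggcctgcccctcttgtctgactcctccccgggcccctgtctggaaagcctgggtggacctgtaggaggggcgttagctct
Postn: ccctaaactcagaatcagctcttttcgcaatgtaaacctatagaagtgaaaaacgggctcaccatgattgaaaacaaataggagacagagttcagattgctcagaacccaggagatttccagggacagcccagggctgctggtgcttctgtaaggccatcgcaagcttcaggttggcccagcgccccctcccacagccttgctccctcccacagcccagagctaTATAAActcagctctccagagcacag

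Thbs3, Thbs4 and Comp encode the pentameric thrombospondins, best known from cartilage, tendon and bone, with Thbs4 also known from heart and vessel wall. None of the 3 passed in a comparison with all arrays. Thbs3 measured 4.21, 5.49 and 5.19 in ascending aorta, 5.32, 4.54 and 4.70 in coronary artery, 5.38, 5.52 and 5.54 in descending aorta, and 5.59, 4.39 and 4.82 in superior mesenteric artery. Its descending aorta arrays were the tightest, with an SD of 0.0866 against 0.67 in ascending aorta, and lay just above the coronary arrays. Thbs4 had the lowest SD of the 10 over all arrays, 0.36, and lay between 3.71 and 5.10. The one high value, 5.10, was superior mesenteric artery replicate 1, against 3.84 and 4.05 in the other arrays of that vessel.

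Comp, the cartilage oligomeric matrix protein gene, which is also made by vascular smooth muscle, had its lowest mean in the superior mesenteric artery. It measured 3.29, 5.08 and 3.83 in ascending aorta, 3.74, 3.47 and 3.49 in coronary artery, 4.33, 3.83 and 4.15 in descending aorta, and 3.40, 2.65 and 2.98 in superior mesenteric artery. Descending aorta and superior mesenteric artery did not overlap, and their difference of 1.09 ± 0.37 did not pass (limma adjusted p = 0.162). It passed without ascending aorta replicate 1 or 2, arrays of neither vessel (limma adjusted p = 0.041 and 0.029). Ascending aorta minus superior mesenteric artery was 1.05 ± 0.37 (limma adjusted p = 0.437), and 1.44 ± 0.33 without ascending aorta replicate 1 (0.0302). The mean of 8 cartilage genes lay between 3.78 and 4.46 over the arrays, with the aggrecan gene Acan between 2.28 and 3.31. The list was not uniform, Cytl1 lying between 6.89 and 11.61. It was at 11.61 in ascending aorta replicate 2 (Comp 5.08) and 11.60 in replicate 3 (Comp 3.83). Chad reached 6.18 in superior mesenteric artery replicate 3 (Comp 2.98). The part of cartilage transcripts in the Comp values was not tested.

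Postn, which encodes periostin, a collagen-binding protein of valves, periosteum and injured heart, was highest in ascending aorta and lowest in coronary artery. It measured 7.18, 8.61 and 8.50 in ascending aorta, 5.58, 4.61 and 5.51 in coronary artery, 6.85, 7.49 and 6.64 in descending aorta, and 8.56, 5.39 and 6.40 in superior mesenteric artery. Ascending aorta and coronary artery did not overlap, and the mesenteric arrays spread over nearly the whole range. The difference was 2.86 ± 0.65 for ascending aorta minus coronary artery (limma adjusted p = 0.0384), a 7.27-fold higher level in ascending aorta. Coronary minus descending aorta was -1.76 ± 0.65 and ascending minus descending aorta 1.10 ± 0.65, neither of which passed (limma adjusted p = 0.237 and 0.617).

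The called Postn difference was sensitive to single arrays. It did not pass in limma when any 1 of ascending aorta replicates 2 and 3, the 3 coronary artery replicates, the 3 descending aorta replicates or superior mesenteric artery replicate 3 was left out (adjusted p between 0.0565 and 0.151). Its F test, at limma adjusted p = 0.0968, passed without ascending aorta replicate 1 (0.0283) and with superior mesenteric replicate 1 (0.00879) or 2 (0.0397) removed. Coronary artery minus descending aorta passed without superior mesenteric artery replicate 1. The mean of 7 smooth muscle genes (Myh11, Acta2, Tagln, Cnn1, Smtn, Lmod1 and Myocd) was 6.63, 8.76 and 8.84 in ascending aorta, 5.80, 5.73 and 5.33 in coronary artery, 7.30, 7.66 and 7.53 in descending aorta, and 9.49, 6.29 and 6.89 in superior mesenteric artery. In limma 3 of 7 were higher in ascending aorta than in coronary artery. Not all had the order of the list mean, Myocd being at 5.77, 5.58 and 6.03 in coronary artery and 4.67, 5.28 and 5.29 in descending aorta. Their part in the Postn difference was not tested.

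Tnc, the gene of tenascin-C, varied as much within vessels as over all arrays. It measured 5.45, 3.38 and 3.72 in ascending aorta, 2.67, 2.87 and 3.67 in coronary artery, 3.60, 4.56 and 3.47 in descending aorta, and 5.76, 2.94 and 3.39 in superior mesenteric artery. The high values were 1 array each of ascending aorta, the array rich in B cell transcripts, and superior mesenteric artery, the array with the highest smooth muscle mean (9.49). Other arrays with such transcripts were lower in Tnc. Mesenteric replicates 2 and 3, with B cell means of 7.55 and 7.16, had 2.94 and 3.39. Ascending aorta replicates 2 and 3, with smooth muscle means of 8.76 and 8.84, had 3.38 and 3.72. The part of B cell or smooth muscle transcripts in the Tnc values was not tested. The pooled SD within vessels was 1.02 against 0.98 over all 12 arrays, and the widest difference, 1.12 ± 0.68 for ascending aorta minus coronary artery, had a 95% interval of -0.37 to 2.60 (limma adjusted p = 0.483).

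Sparc, which encodes a collagen-binding protein made by fibroblasts, smooth muscle and endothelium, was measured well above the array median in all vessels. It was at 9.06, 10.86 and 11.00 in ascending aorta, 10.30, 10.23 and 9.95 in coronary artery, 10.80, 11.08 and 11.02 in descending aorta, and 10.71, 10.50 and 10.65 in superior mesenteric artery. Apart from ascending aorta replicate 1, the coronary arrays were the lowest and did not overlap with any other vessel. Coronary artery minus descending aorta was -0.81 ± 0.39 (limma adjusted p = 0.429). Without ascending aorta replicate 1, where fibroblast genes averaged 6.01, the same difference had an SE of 0.17 and passed (limma adjusted p = 0.0125), and ascending aorta minus coronary artery was 0.77 ± 0.19 (0.0395).

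Ascending aorta replicate 1 had the lowest value of all 12 arrays for Thbs3, Spon2 and Sparc and one of the lowest for Thbs2 and Spon1. Without it, 6 of the 10 genes passed the limma F test (Thbs1, Thbs2, Comp, Spon2, Sparc and Postn), where 9.15% of all genes passed. Ascending aorta then differed from superior mesenteric artery in 4 of the 10 (Thbs2, Comp, Spon1 and Spon2, against 3.15% of all genes), and descending aorta from superior mesenteric artery in 4 (Thbs1, Thbs2, Comp and Spon2, against 6.83%). Coronary artery then differed from descending aorta in 3 (Thbs2, Spon2 and Sparc, against 5.3%) and ascending aorta from coronary artery in 3 (Spon2, Sparc and Postn, against 3.85%). Between ascending and descending aorta, 0 of the 10 genes passed whichever 1 of the 12 arrays was left out. Left out in turn, coronary artery replicate 2 or 3, descending aorta replicate 2 or 3 or superior mesenteric artery replicate 3 each brought the F count to 1, Spon2.

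Taken over the 10 genes, coronary artery and descending aorta were the pair with the most separation of arrays. For 6 of the 10 the coronary and descending arrays did not overlap, where 22.4% of all genes did not: Thbs2 and Spon2 were higher, and Thbs3, Comp, Sparc and Postn lower, in the coronary artery. The median difference over the 10 was -0.58, where the median over all genes was -0.01. For descending aorta with superior mesenteric artery, 5 of the 10 did not overlap (22.9% of all genes), close to that count. For coronary with superior mesenteric artery, 4 of the 10 did not overlap (22.4% of all genes). Between ascending and descending aorta, 0 of the 10 were separated in this way (15.7% of all genes), and the median difference was -0.06.

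Of 18 measured genes of the tenascin, SPARC, CCN and related families, 3 passed in at least 1 comparison: Spock2, Tgfbi and Ccn5. Over all genes 6.8% did. In the F test 2 of the 18 passed, where 4.72% of all genes passed. Spock2, a proteoglycan gene of the SPARC family, had a profile like that of Spon2. It measured 3.64, 4.86 and 4.63 in ascending aorta, 5.95, 5.73 and 5.50 in coronary artery, 4.48, 3.97 and 4.74 in descending aorta, and 5.53, 5.07 and 5.40 in superior mesenteric artery, with no overlap between branch arteries and aorta. Ascending aorta minus superior mesenteric artery was -0.96 ± 0.30, and descending aorta minus superior mesenteric artery was -0.94 ± 0.30. Neither passed (limma adjusted p = 0.366 and 0.143), unlike those of Spon2. The Spock2 difference was -1.35 ± 0.30 for ascending aorta minus coronary artery and 1.33 ± 0.30 for coronary artery minus descending aorta (limma adjusted p = 0.037 and 0.0329). The first was lost without ascending aorta replicate 3, any 1 coronary artery replicate, descending aorta replicate 1 or superior mesenteric artery replicate 3 (limma adjusted p between 0.0518 and 0.132). The other was lost without any 1 coronary artery replicate, descending aorta replicate 1 or 2 or superior mesenteric artery replicate 3 (0.0502 to 0.167). The ascending aorta call of Spock2 was also lost with the 6 arrays of the pair alone (limma adjusted p = 0.148) and without 3 arrays, ascending aorta replicate 1, descending aorta replicate 1 and mesenteric replicate 3 (0.0936).

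Tgfbi, the paralogue of Postn, measured 7.43, 6.93 and 6.91 in coronary artery and 8.43, 8.43 and 8.54 in descending aorta, with a difference of -1.38 ± 0.23 (limma adjusted p = 0.00522) that passed with any 1 array left out. Ccn5, a CCN family gene that restrains smooth muscle growth, was higher in descending aorta than in superior mesenteric artery by 1.56 ± 0.38 (limma adjusted p = 0.0481). It passed without ascending aorta replicate 1 or 3 but not without any 1 of the other 10 arrays (limma adjusted p up to 0.176). It was also lost after a renewed quantile normalization (0.0505) and when all 6 comparisons were adjusted as one family (0.0683). Of the 18 genes, 0 passed between ascending and descending aorta, ascending aorta and superior mesenteric artery, or coronary and superior mesenteric artery, against 1, 3 and 2 at an unadjusted p under 0.05 in limma (9.64%, 7.22% and 14.8% of all genes). Their median difference was -0.32 for coronary artery minus descending aorta and between -0.18 and 0.08 in the other comparisons.

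Of 24 receptors and binding partners of matricellular proteins, 3 passed in at least 1 comparison, where 6.8% of all genes did. Cd36, the thrombospondin receptor that is also a fatty acid transporter of fat and muscle, measured 9.57, 9.41 and 9.22 in descending aorta and 8.23, 8.41 and 8.47 in superior mesenteric artery, a difference of 1.03 ± 0.24 (limma adjusted p = 0.036). Adipocyte genes averaged between 8.02 and 8.83 in descending aorta and between 6.58 and 6.86 in superior mesenteric artery, and their part was not tested. The Cd36 call was lost without coronary artery replicate 1 or 3 or any 1 descending aorta or superior mesenteric artery replicate (limma adjusted p up to 0.137), after a renewed quantile normalization (0.0531) and when all 6 comparisons were adjusted as one family (0.0515). Cd47, the other Thbs1 receptor, was at 7.88 ± 0.26 in descending aorta and 8.59 ± 0.10 in superior mesenteric artery and did not pass (limma adjusted p = 0.0899). Without ascending aorta replicate 1, Cd47 and the integrin gene Itga4 passed in this comparison.

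Itga6, a laminin receptor subunit, gave -2.22 ± 0.44 for descending aorta minus superior mesenteric artery (limma adjusted p = 0.0168). It did not pass without descending aorta replicate 2 or superior mesenteric artery replicate 2 or 3 (limma adjusted p up to 0.0757). Itga8, which binds tenascin-C among other ligands and marks smooth muscle, was at 8.13 ± 1.36 in ascending aorta and 3.94 ± 0.38 in coronary artery (limma adjusted p = 0.0163). The call was lost when ascending aorta replicate 2 or 3, or else any 1 coronary replicate, was removed (limma adjusted p between 0.0537 and 0.0773). Of the 24, 0 passed in limma between ascending and descending aorta, with 5 at an unadjusted p under 0.05 (9.64% of all genes) and a median difference of 0.28. Also, 0 passed in limma between ascending aorta and superior mesenteric artery, coronary artery and descending aorta, or coronary and superior mesenteric artery, with 4, 4 and 5 at an unadjusted p under 0.05 (7.22%, 12.7% and 14.8% of all genes).

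**Figure D5:**
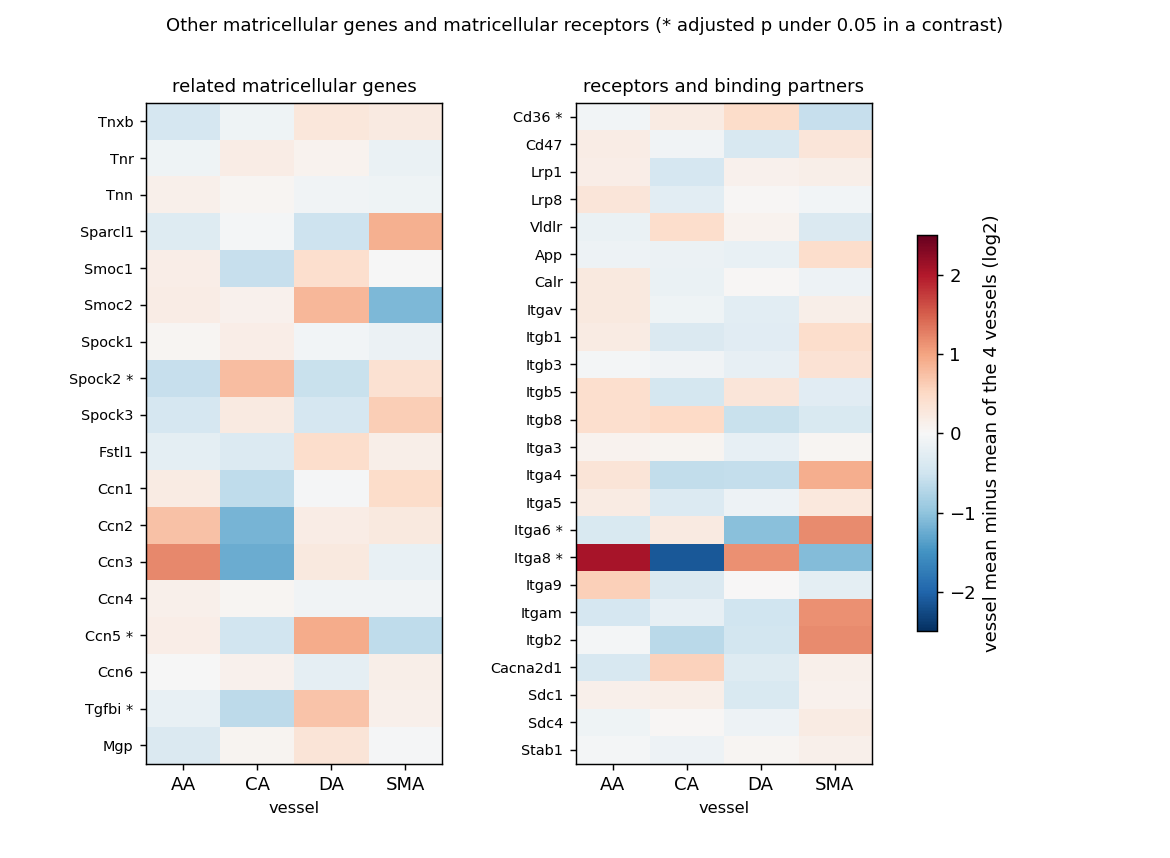
Vessel mean minus the mean of the 4 vessels (colour, log2 units) for 18 other matricellular genes and 24 receptors and binding partners in ascending aorta (AA), coronary artery (CA), descending aorta (DA) and superior mesenteric artery (SMA), with an asterisk on genes that passed in a comparison. Spock2 is high in both branch arteries, though it passed only between coronary artery and the aortic segments. Itga8 has the widest span, high in the aorta and low in the coronary artery.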

How the data were processed

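Per the labels' protocols, RNA of each vessel was isolated with Trizol, and 6 ug went into biotinylated cRNA for hybridisation. The submitters' processing notes name RMA and Partek 6.6, without their order or settings. The authors deposited log2 values for 35556 probe sets in each of the 12 arrays, taken here as given. Of these, 21789 had 1 gene symbol in the platform annotation, and the probe set with the highest mean was kept per gene, giving 19938 genes.

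All 12 arrays entered 1 linear model, with a mean for each vessel, in limma 3.58.1 (R 4.3.3), with an F test and 6 contrasts, each adjusted by Benjamini-Hochberg over all genes, at a threshold of 0.05. The procedure was tested on simulated data. Figures used matplotlib 3.10.9. The 10 genes, the related lists and the marker lists were chosen with earlier results of these data known. Text names all 10 genes, at most 5 passing genes per related list and comparison, and the 3 genes most correlated with each of the 3 members of lowest F p. That ranking skipped the 10 genes themselves and unnamed gene models (Gm, Rik or LOC symbols). Alternatives were other normalizations, filters, variance models, adjustments and sets of arrays.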

Additional observations from a re-analysis of the deposited data

How the results depend on the processing

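The number of the 10 genes called in the F test was 2, and 5 with array weights. It was 3 (with Thbs2) after a renewed quantile normalization, with arrays centred on their medians or without 3 of the arrays carrying other tissue. These were replicate 1 of ascending aorta, replicate 1 of descending aorta (heart muscle mean 5.14) and replicate 3 of superior mesenteric artery. Other arrays with such transcripts, among them the 3 coronary arrays with heart muscle genes, stayed in that fit. The F count ranged from 1 to 6 with each array left out in turn. For ascending aorta against coronary artery the count was 2, and 1 with an intensity trend and robust variance or with the replicate block, with a range of 1 to 3 without single arrays. For ascending aorta against superior mesenteric artery it was 1, and 2 with array weights or without those 3 arrays. It was 0 with the replicate block (Spon2, limma adjusted p = 0.0644) or with the 6 arrays of the pair alone (0.572), and ranged from 0 to 4 without single arrays. For coronary artery against descending aorta it was 1, and 4 with the 6 arrays of the pair alone and 2 without those 3 arrays, ranging from 1 to 3. For coronary against superior mesenteric artery it was 2 under all 10 other alternatives and ranged from 0 to 2 without single arrays. For descending aorta against superior mesenteric artery it was 1, and 2 after a renewed quantile normalization, without the dimmest 25% of genes or without those 3 arrays, and 4 with array weights or the 6 arrays of the pair alone, ranging from 0 to 4. Ascending against descending aorta gave 0 in each fit. The cause of these changes was not tested, except that fewer arrays or genes entered some fits. No called difference of a member changed sign. The Spon2 differences of coronary artery from both aortic segments passed in all 12 fits without single arrays and all 10 others. The labels do not say whether same-numbered arrays share an animal. Over 18 same-numbered pairs, deviations from vessel means correlated between -0.251 and 0.0889. Such correlations cannot settle this, since other tissue in single arrays also enters the deviations. With the replicate block the Postn difference had limma adjusted p = 0.0675. The calls of Spock2 (both), Ccn5 and Cd36 were lost with the replicate block (limma adjusted p between 0.06 and 0.069). Over all alternatives and single arrays left out, calls over all genes ranged from 0 to 48 for ascending against descending aorta (3 with all arrays), 251 to 887 for ascending aorta against coronary artery (493) and 0 to 628 for ascending aorta against superior mesenteric artery (35). They ranged from 324 to 1261 for coronary artery against descending aorta (627), 314 to 1292 for coronary against superior mesenteric artery (645) and 218 to 1361 for descending aorta against superior mesenteric artery (639).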
